A study of Mus musculus with 16 samples.

Results

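Gene expression in mouse footpads was examined for the genes that prepare peptides for MHC class I molecules. The set held 10 genes, Psmb8, Psmb9, Psmb10, Tap1, Tap2, Tapbp, Pdia3, Erap1, B2m and Nlrc5, of 19938 genes measured. They were chosen by name, and each was read from its probe set with the highest mean signal over the arrays. A probe set is the group of short probes on the array that reports 1 transcript, and its value is a log2 signal, so a difference of 1 is a 2-fold change.

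Footpad RNA was hybridized, 1 footpad sample to an array, on 16 arrays of the Affymetrix Mouse Gene 1.0 ST type. AIRmax and AIRmin are non-inbred mouse lines, obtained from an intercross of 8 inbred strains by breeding for maximal or minimal acute inflammation. The 4 groups were AIRmax pristane, AIRmax control, AIRmin pristane and AIRmin control, each with 4 arrays from 2 males and 2 females. Pristane is a mineral oil that induces arthritis in mice, and in the study's methods it was given intraperitoneally in 2 injections of 0.5 ml, 60 days apart. Pristane footpads were labelled day 160 and control footpads day 0, so treatment, time and the age at collection cannot be told apart. The study's methods count these days from the second injection, while the labels call the day 0 footpads controls, so it is not settled whether the controls had received pristane. The labels gave an age of 2 to 4 months for every group. The study describes the lines as carrying distinct MHC haplotypes, H2b in AIRmax and H2kd in AIRmin.

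Most cells display fragments of their own proteins on MHC class I molecules, where cytotoxic T cells and natural killer cells inspect them. Psmb8, Psmb9 and Psmb10 are the catalytic subunits of the immunoproteasome, which cuts proteins into peptides, and they take the places of Psmb5, Psmb6 and Psmb7 of the standard proteasome. Tap1 and Tap2 form the transporter that carries the peptides into the endoplasmic reticulum. There Erap1 trims them, and Tapbp (tapasin) and Pdia3 (ERp57) help to load them onto the class I heavy chain, which pairs with the light chain B2m (beta-2-microglobulin). Nlrc5 is a transactivator of class I genes and of several genes of this set. Interferon gamma is a known inducer of the pathway, in part through Irf1.

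The MHC region of chromosome 17 holds 5 of the members. In the mouse assembly GRCm38.p6 these are Tapbp (33919478 to 33929290), Psmb9 (34182030 to 34187330), Tap1 (34187556 to 34197225), Psmb8 (34198195 to 34201454) and Tap2 (34204479 to 34216321). B2m (122147687 to 122153082) and Pdia3 (121413902 to 121438687) are on chromosome 2, Erap1 (74639573 to 74693205) on chromosome 13, and Psmb10 (105935728 to 105938392) and Nlrc5 (94434335 to 94527272) on chromosome 8. All 10 are protein-coding.

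Promoter windows of RefSeq starts, 300 bases long with 250 before the start, were matched for 8 of the 10 genes; no window was matched for Tap2 or Nlrc5. Stretches from 3 of them are shown, picked because they hold motifs of known class I regulators. Whether the motifs have a part in the signals was not tested. Capitals mark matches, on either strand, to the interferon-stimulated response element core (a pair of GAAA repeats with any 2 bases between them), the NF-kappaB site, the X2 box core (TGACG) and the Y box (ATTGG); no marked matches overlap.
B2m, chr2:122147437-122147686, plus strand: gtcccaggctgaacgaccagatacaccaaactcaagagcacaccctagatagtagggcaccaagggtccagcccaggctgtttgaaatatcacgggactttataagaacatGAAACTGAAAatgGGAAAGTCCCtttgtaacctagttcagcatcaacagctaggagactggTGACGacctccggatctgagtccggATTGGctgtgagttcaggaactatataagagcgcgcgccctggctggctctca
Tap1, chr17:34187306-34187555, plus strand: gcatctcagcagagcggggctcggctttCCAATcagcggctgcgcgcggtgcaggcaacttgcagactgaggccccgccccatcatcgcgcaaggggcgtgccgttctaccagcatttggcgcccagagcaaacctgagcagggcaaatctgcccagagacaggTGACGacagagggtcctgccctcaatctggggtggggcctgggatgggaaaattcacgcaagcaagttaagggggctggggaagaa
Erap1, chr13:74639793-74639872, plus strand: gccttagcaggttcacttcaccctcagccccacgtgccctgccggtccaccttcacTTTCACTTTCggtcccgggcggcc
The B2m stretch ends at the base before the start and holds the interferon element at position -139 from the start, the NF-kappaB site at -126, the X2 core at -78 and the Y box at -53. Tap1 and Psmb9 are transcribed in opposite directions from starts 226 bases apart, and their windows share 275 bases. The X2 core of this shared stretch is at -86 from Tap1 and at -144 from Psmb9, and its Y box at -222 from Tap1 and at -8 from Psmb9. In Erap1 the interferon element lies across the start of the window's RefSeq transcript, at -4. That start is downstream of 74639573, the first base of the Erap1 gene interval given above.

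These motifs were counted in all 32851 promoter windows as well. The interferon element was in the windows of 2 of 8 members and in 3.4% of all windows. The X2 core was in 4 of 8 members and 20.8% of all windows, the Y box in 5 of 8 and 37.4%, the NF-kappaB site in 1 of 8 (B2m) and 8.5%, and the gamma-activated site (TTCNNNGAA) in 1 of 8 (Psmb8) and 8.3%. The X2 core and the Y box in the stretch shared by Tap1 and Psmb9 were counted for both genes. The letters describe the windows only, and binding was not measured.

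All members were well above the signal of absent transcripts. The lowest member value on any array was 6.64 (Erap1), against 3.45 to 4.32 for Xist in males and 2.04 to 3.34 for 3 Y-linked genes in females. Epidermal Krt14 (10.38 to 12.51) and muscle Acta1 (9.99 to 12.5) were high on every array. Array medians were 5.435 to 5.53. The arrays are numbered group by group (109 to 112 AIRmax pristane, 105 to 108 AIRmax control, 117 to 120 AIRmin pristane, 113 to 116 AIRmin control), so an effect of that order and the groups cannot be told apart. In each group the lower pair of numbers are males.

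No class I processing gene passed the test between pristane and control footpads in either line. In AIRmax, 0 of 10 members passed limma with Benjamini-Hochberg adjustment at 0.05 between pristane and control footpads, where 0.281% of all genes passed. None had an unadjusted p under 0.05 (14.4% of all genes), and none had groups without overlap (9.39% of all genes). In AIRmin, 0 of 10 members passed, as did 0% of all genes. There 0 of 10 had an unadjusted p under 0.05 (12.4% of all genes) and 0 had groups without overlap (7.51%). SAM, the test named in the study's methods, called 0 members in either line, against 3.4% of all genes in AIRmax and 1.95% in AIRmin. The median member log2 fold change was 0.02 in AIRmax, against 0.03 over all genes, and 0.04 in AIRmin, against 0.02 over all genes.

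B2m was the plainest case. Its log2 signal was 12.08, 11.68, 11.80 and 12.12 in AIRmax pristane footpads, against 11.83, 11.60, 12.17 and 12.07 in AIRmax control footpads. It was 11.33, 11.95, 11.29 and 12.09 in AIRmin pristane footpads, against 11.21, 11.90, 11.83 and 12.04 in AIRmin control footpads. The groups of each line overlapped throughout, and the log2 fold change was 0.00 (95% interval -0.35 to 0.35) in AIRmax and -0.08 (-0.59 to 0.43) in AIRmin.

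The largest pristane difference among the members was that of Tap1 in AIRmin. Tap1 read 7.38, 7.96, 7.34 and 8.16 in AIRmin pristane footpads, against 6.96, 7.35, 7.16 and 7.60 in AIRmin control footpads. The upper pristane arrays, 118 and 120, stood above all controls while the others fell among them. The difference of 0.44 (SE 0.21, n = 4 each) did not pass (adjusted p = 0.43). In AIRmax, Tap1 read 8.27, 7.80, 7.99 and 8.25 with pristane, against 7.59, 7.41, 8.31 and 8.55 in controls, a difference of 0.11 with a 95% interval of -0.46 to 0.69.

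The intervals show how much change these arrays could have missed. For Pdia3 the interval was narrow, -0.14 to 0.24 in AIRmax and -0.33 to 0.10 in AIRmin. For Psmb8 it was wide, -0.81 to 0.80 in AIRmax and -0.61 to 0.65 in AIRmin, so a change in either direction may have gone undetected. The test of the difference between the lines' responses called 0 of 10 members (0.171% of all genes), 0 with an unadjusted p under 0.05 (8.21% of all genes). The largest such differences were -0.35 for Psmb9 (adjusted p = 0.911) and -0.33 for Tap1 (adjusted p = 0.891).

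**Figure D1:**
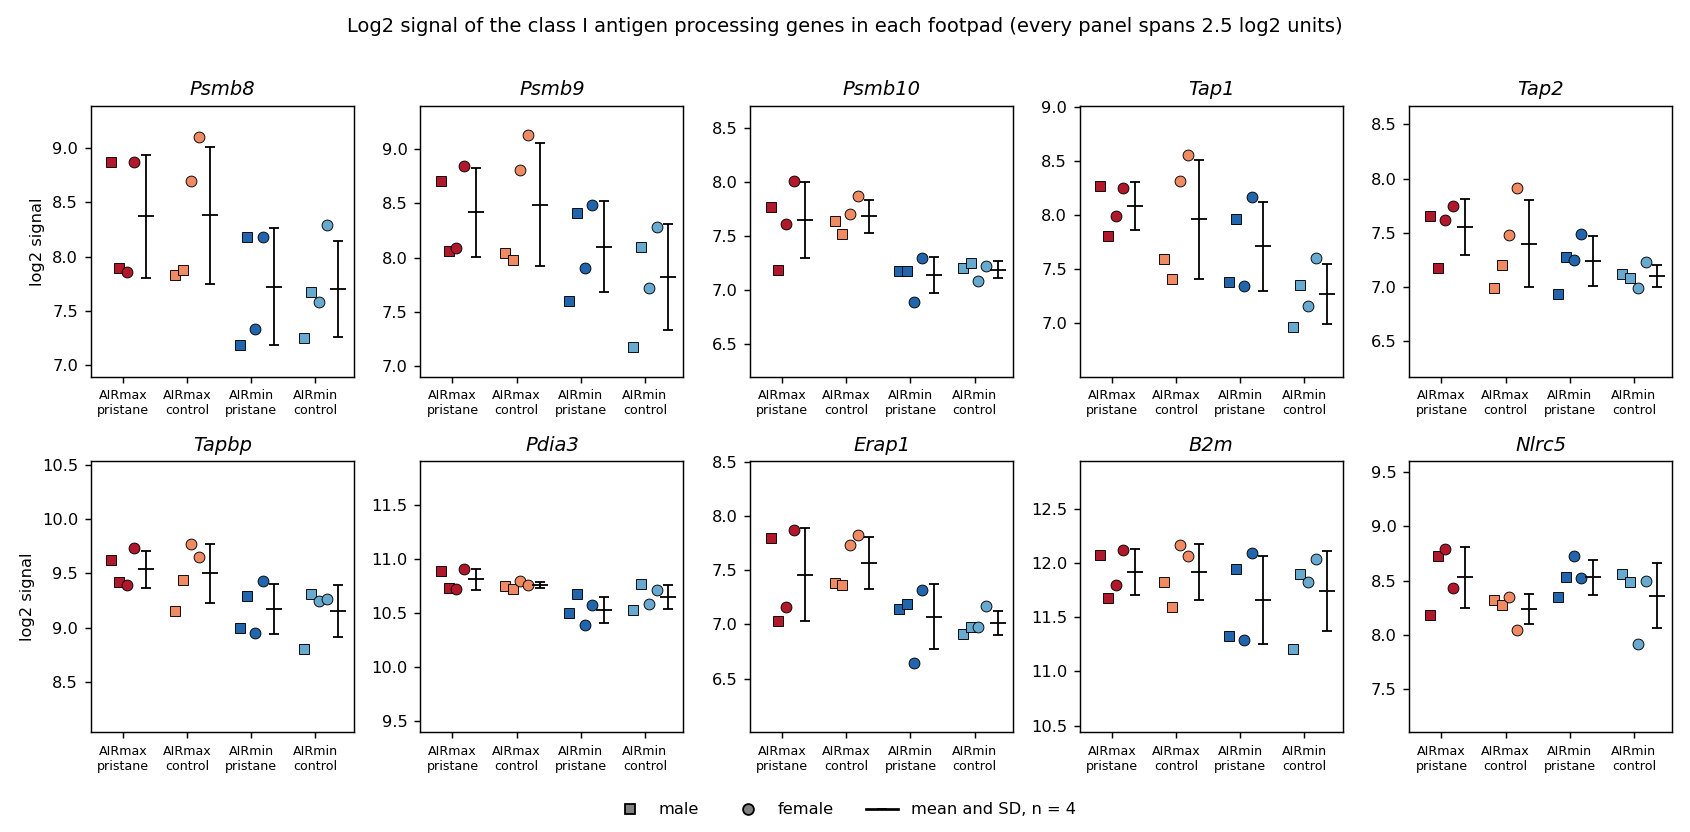
Log2 signal of each of the 10 genes (y axis) in the 4 groups (x axis), 1 point for each footpad, with squares for males, circles for females and bars for the mean and SD of 4. The pristane and control points of a line overlap for every gene, and Psmb10 has AIRmax control points from 7.52 to 7.87 above AIRmin control points from 7.08 to 7.25.

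Differences between the lines had a larger median than those between the treatments, a comparison that was not tested. It did not hold for Nlrc5 or, in part, for Tap1 and Pdia3. In pristane and in control footpads alike, 9 of the 10 members were on average higher in AIRmax than in AIRmin, Nlrc5 being the exception. The median member log2 fold change between AIRmax and AIRmin was 0.35 in pristane footpads (-0.01 over all genes) and 0.42 in control footpads (-0.03 over all genes). Within a treatment, though, no member passed the test. In pristane footpads 0 of 10 were called (1.36% of all genes), with 3 members higher at an unadjusted p under 0.05 (8.77% of all genes) and 1 above without overlap (5.04% of all genes). In control footpads 0 of 10 were called (0.0802% of all genes), with 3 higher at an unadjusted p under 0.05 (8.38% of all genes) and 2 above without overlap (5.39% of all genes). SAM called 0 members in pristane footpads (4.85% of all genes) and 2, Psmb10 and Erap1, in control footpads (1.29% of all genes).

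Psmb10, the immunoproteasome subunit with trypsin-like activity, gave the steadiest line difference. In control footpads its log2 signal was 7.64, 7.52, 7.70 and 7.87 in AIRmax, against 7.20, 7.25, 7.08 and 7.22 in AIRmin. Every AIRmax control thus lay above every AIRmin control. The log2 fold change was 0.49 (SE 0.09, 1.41-fold), with an adjusted p of 0.106. In pristane footpads Psmb10 read 7.77, 7.19, 7.61 and 8.01 in AIRmax, against 7.18, 7.18, 6.89 and 7.30 in AIRmin. Array 110 was the AIRmax footpad that fell among the AIRmin values, and the log2 fold change of 0.51 (SE 0.18) had an adjusted p of 0.167. With all 16 arrays in 1 fit this difference passed (adjusted p = 0.0436), in a fit that called 7.62% of all genes against 1.36% in the pairwise fit.

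Erap1, the peptide-trimming aminopeptidase, followed the same order. In control footpads it read 7.38, 7.36, 7.73 and 7.83 in AIRmax, against 6.91, 6.98, 6.98 and 7.17 in AIRmin, with no overlap. The log2 fold change was 0.56 (SE 0.12, 1.48-fold) with an adjusted p of 0.147. In pristane footpads the values spread more widely, 7.80, 7.03, 7.16 and 7.87 in AIRmax against 7.14, 7.19, 6.64 and 7.32 in AIRmin. These groups overlapped, and the difference of 0.39 (95% interval -0.12 to 0.90) did not pass (adjusted p = 0.391).

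The other immunoproteasome subunits varied most within groups. Psmb8 read 8.87, 7.89, 7.86 and 8.87 in AIRmax pristane footpads and 7.83, 7.88, 8.70 and 9.10 in AIRmax control footpads. It read 7.18, 8.18, 7.33 and 8.18 in AIRmin pristane footpads and 7.25, 7.67, 7.58 and 8.29 in AIRmin control footpads. In every group but AIRmin control, a high pair and a low pair of arrays stood apart. The line difference was 0.65 (95% interval -0.08 to 1.39) in pristane footpads (adjusted p = 0.318) and 0.68 (-0.02 to 1.38) in control footpads (adjusted p = 0.308). Psmb9 behaved in the same way, averaging 8.42 ± 0.41 in AIRmax pristane, 8.49 ± 0.57 in AIRmax control, 8.10 ± 0.42 in AIRmin pristane and 7.82 ± 0.49 in AIRmin control footpads (SD, n = 4 each).

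The peptide transporter was higher in AIRmax for both of its chains. Tap1 differed by 0.37 in pristane footpads (SE 0.20, adjusted p = 0.369) and by 0.70 in control footpads (SE 0.25, adjusted p = 0.24). Tap2 differed by 0.31 in pristane footpads (SE 0.16, adjusted p = 0.331) and by 0.29 in control footpads (SE 0.18, adjusted p = 0.414). Tap2 values ran from 7.17 to 7.75 in AIRmax pristane, 6.99 to 7.91 in AIRmax control, 6.93 to 7.49 in AIRmin pristane and 6.99 to 7.23 in AIRmin control footpads, all overlapping.

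Of the loading factors, Pdia3 had the smallest spread. It read 10.89, 10.73, 10.72 and 10.91 in AIRmax pristane footpads, against 10.50, 10.68, 10.39 and 10.57 in AIRmin pristane footpads. These groups did not overlap, and the log2 fold change was 0.28 (SE 0.10, 1.21-fold, adjusted p = 0.192). In control footpads, 10.75, 10.72, 10.80 and 10.76 in AIRmax stood against 10.53, 10.77, 10.58 and 10.71 in AIRmin, overlapping, with a difference of 0.11 (adjusted p = 0.484). Tapbp differed by 0.38 (SE 0.14, adjusted p = 0.194) in pristane and by 0.35 (SE 0.16, adjusted p = 0.305) in control footpads. For B2m the line difference was 0.26 in pristane footpads (95% interval -0.20 to 0.72) and 0.17 in control footpads (-0.26 to 0.60).

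**Figure D2:**
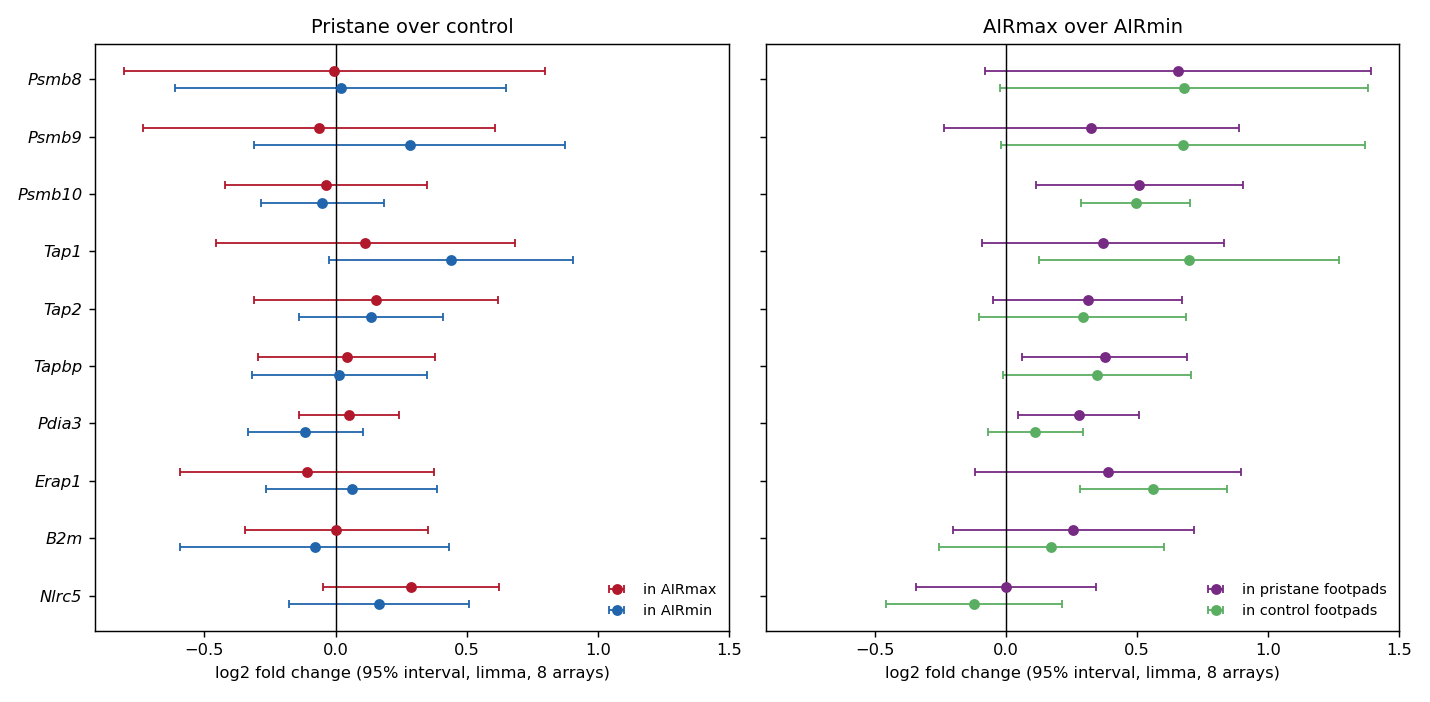
Log2 fold change of each gene with its 95% interval from limma on 8 arrays, pristane over control on the left (AIRmax red, AIRmin blue) and AIRmax over AIRmin on the right (pristane footpads purple, control footpads green). Points on the left lie around 0, the largest being Tap1 in AIRmin at 0.44, and on the right all genes but Nlrc5 lie above 0.

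Since 9 of the 10 members were on average higher in AIRmax in both treatments, the line difference was also estimated over pristane and control footpads together. This comparison was added after the data were seen. The pristane and control differences were alike for Psmb8 (0.65 and 0.68) but not for Psmb9 (0.33 and 0.67) or Pdia3 (0.28 and 0.11). Psmb10 (0.50, SE 0.10, adjusted p = 0.0108) and Erap1 (0.47, SE 0.14, adjusted p = 0.0422) were higher in AIRmax. These were 2 of 10 members, against 4.64% of all genes called higher. At an unadjusted p under 0.05, 8 of 10 members were higher, against 13.9% of all genes. Most members moved together over the arrays, as described below, so these 8 are not separate results. Tapbp (0.36, adjusted p = 0.0501) and Pdia3 (0.19, adjusted p = 0.0513) lay just past the threshold. Next came Tap1 (0.53, adjusted p = 0.0638), Psmb8 (0.67, adjusted p = 0.0895), Tap2 (0.30, adjusted p = 0.123), Psmb9 (0.50, adjusted p = 0.136), B2m (0.21, adjusted p = 0.353) and Nlrc5 (-0.06, adjusted p = 0.752). Psmb10 was called whichever of the 16 arrays was left out (adjusted p up to 0.0281). The call of Erap1 was lost without any 1 of 9 arrays, 107, 108, 109, 112, 113, 114, 115, 117 or 119 (adjusted p = 0.0689 to 0.0874).

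Over both treatments, mean line differences were positive on chromosome 17 and, Nlrc5 aside, elsewhere, but no chromosome 17 member was called. The 5 members on chromosome 17 had a median line difference of 0.50 (0.30 to 0.67) over both treatments. The 4 others without Nlrc5 had a median of 0.34 (0.19 to 0.50), and the 2 called members are on chromosomes 8 and 13. No test of this contrast was made. Sequence differences between the lines' MHC haplotypes under the probes were not checked, here or for the class I heavy chains below. Their part in these values is therefore not known.

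The order of group means was thus AIRmax above AIRmin for 9 genes, with the treatments of a line as neighbours whose difference passed no test. The spread itself was shared. Among the 9 members without Nlrc5, all 36 pairs correlated positively over the 16 arrays, with Pearson r from 0.52 to 0.95 and a median of 0.81. After each group's mean was taken away, r was 0.33 to 0.96 with a median of 0.74. Psmb8 and Psmb9 were the most alike (0.95), Tap1 followed Psmb9 (0.93), and Psmb10 followed Erap1 (0.92). The least alike were Tap2 and Pdia3 (0.52). These arrays share groups, sexes and any other difference between footpads, so the values are descriptions.

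The footpads at the ends of this shared order are few. The mean deviation of the 10 genes from their own averages was highest on arrays 108 (0.46), 112 (0.45), 109 (0.35) and 107 (0.35), all AIRmax. It was lowest on arrays 113 (-0.46), 117 (-0.37), 119 (-0.36) and 115 (-0.32), all AIRmin. By group it averaged 0.21 ± 0.24 in AIRmax pristane, 0.16 ± 0.29 in AIRmax control, -0.14 ± 0.26 in AIRmin pristane and -0.23 ± 0.20 in AIRmin control footpads (SD, n = 4 each), with overlap between the lines. In AIRmax controls, both females lay above both males for 9 of 10 genes (18.1% of all genes). That held for 1 of 10 in AIRmin controls (21.6%) and for 0 of 10 in AIRmax pristane (15.7%) and AIRmin pristane footpads (13.9%).

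**Figure D3:**
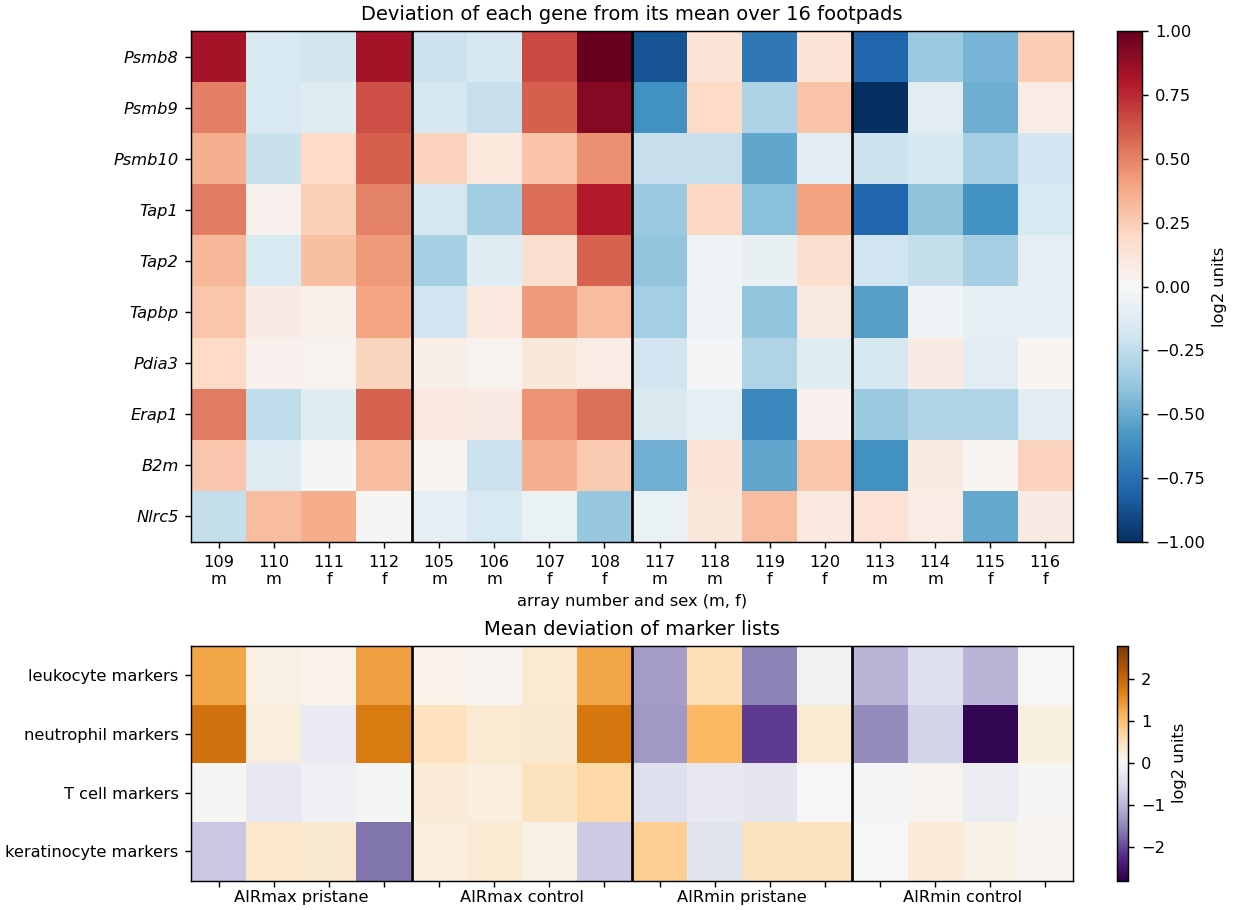
Deviation of each gene from its mean over 16 arrays (rows, log2 units, red above and blue below), with arrays as columns by group and sex, over the mean deviation of 4 marker lists (orange above, purple below). Arrays 109, 112, 107 and 108 are red for 9 of the genes, and Nlrc5, read from its brightest probe set, does not follow them. The leukocyte markers are highest on 112 (1.37), 108 (1.31) and 109 (1.30).

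Markers shared by blood leukocytes moved with these genes, while B cell markers hardly did (r = 0.09). All 8 leukocyte markers (Ptprc, Coro1a, Laptm5, Cd53, Cd52, Lcp1, Itgb2 and Arhgdib) were measured, and none was near the level of absent transcripts. Their mean deviation was 0.10 to 1.37 in AIRmax pristane, 0.06 to 1.31 in AIRmax control, -1.51 to 0.54 in AIRmin pristane and -1.0 to 0.02 in AIRmin control footpads. Ptprc, the pan-leukocyte antigen CD45, averaged 9.54 ± 0.60 in AIRmax pristane, 9.41 ± 0.53 in AIRmax control, 8.03 ± 0.95 in AIRmin pristane and 8.38 ± 0.49 in AIRmin control footpads (SD, n = 4 each). In a whole tissue, more leukocytes and more transcript in each cell cannot be told apart.

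Over the 16 arrays, the mean deviation of the 10 genes correlated with that of the leukocyte markers at r = 0.92 (rho = 0.86). Without the 2 arrays farthest from the median leukocyte value, 117 and 119, r was 0.91, and within groups it was 0.87. With neutrophil markers r was 0.87 (within groups 0.78), with NK cell markers 0.79 (0.79), with macrophage markers 0.68 (0.75) and with T cell markers 0.60 (0.86). B cell markers hardly followed, at 0.09 (0.38), and keratinocyte markers ran the other way, at -0.68 (-0.66). Without the 2 arrays farthest from the median of each marker score, r was 0.88 for neutrophil, 0.70 for NK cell, 0.55 for macrophage and -0.52 for keratinocyte markers. For T cell markers it was 0.34 without arrays 107 and 108, so the relation over all arrays rested largely on these AIRmax controls. Of the NK cell markers, Ncr1, Klrb1c, Klrk1 and Gzma read only 2.61 to 4.39, near the level of absent transcripts. Prf1 read 4.91 to 5.64 and Nkg7 5.35 to 9.88, so much of the spread in the NK cell score came from Nkg7. The correlations are descriptions over arrays that share line and treatment.

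The line difference was then fitted with the leukocyte deviation as a covariate, an alternative added after the data were seen. Over both treatments, 0 members and 140 genes were called, against 2 members and 1886 genes without it. Psmb10 kept a difference of 0.26 (adjusted p = 0.322) and Erap1 of 0.09 (adjusted p = 0.82). Tap1 was at 0.01, Psmb8 at -0.15 and B2m at -0.21. The leukocyte markers themselves differed between the lines, with 6 of 8 called higher in AIRmax over both treatments (4.64% of all genes). This fit therefore also takes up line differences that go with them. Their part in the result was not tested in any other way.

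**Figure D4:**
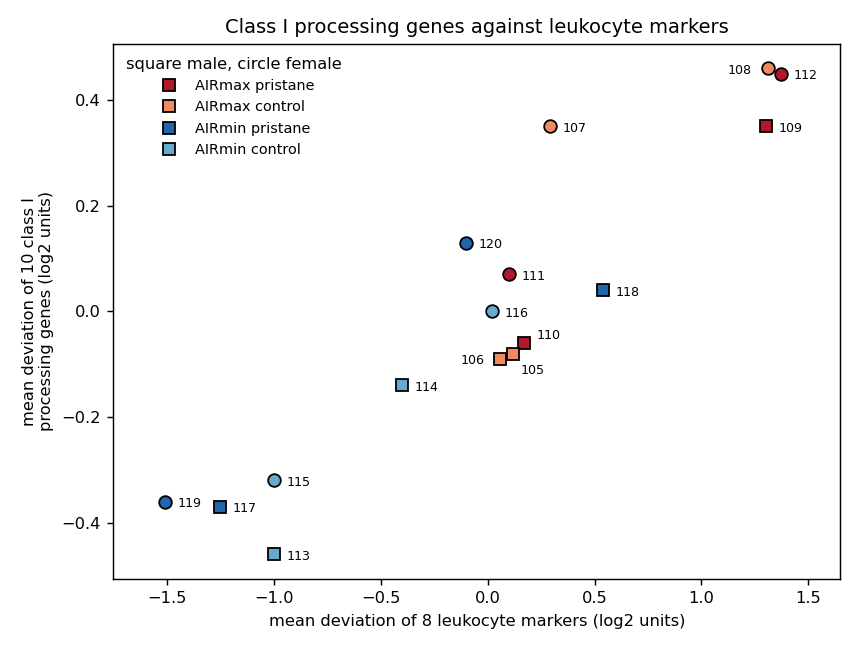
Mean deviation of the 10 class I processing genes (y axis, log2 units) against the mean deviation of 8 leukocyte markers (x axis, log2 units), 1 numbered point for each array, coloured by group, with squares for males and circles for females. The points rise together (r = 0.92) from arrays 113, 117 and 119 to arrays 109, 112 and 108.

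The brightest probe set of Nlrc5 did not follow the other genes of the set. This probe set read 8.18, 8.73, 8.79 and 8.43 in AIRmax pristane footpads, against 8.32, 8.27, 8.35 and 8.04 in AIRmax control footpads. It read 8.35, 8.53, 8.73 and 8.52 in AIRmin pristane footpads, against 8.56, 8.49, 7.91 and 8.50 in AIRmin control footpads. All 4 groups overlapped. The pristane difference of 0.29 in AIRmax (SE 0.15, adjusted p = 0.407) was the largest of any member in that line, and it was 0.17 in AIRmin (adjusted p = 0.715). With the other 9 members r ran from -0.47 (Erap1) to -0.05 (Tap2).

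Nlrc5 alone among the members had more than 1 probe set, with 19 in all. The brightest (mean 8.42) correlated at -0.29 with the mean deviation of the other 9 genes. The other 18 (means 5.03 to 7.12) correlated with it at -0.12 to 0.74, with a median of 0.44, and 16 of the 18 were above 0. The mean of the 18 correlated at 0.53. The brightest probe set had a median r of 0.24 with the other 18, while pairs of those 18 had a median r of 0.66. So the reading of Nlrc5 depended on the probe set, and its direction between the lines did too. Averaged over all probe sets, Nlrc5 was 0.14 higher in AIRmax than in AIRmin control footpads (adjusted p = 0.643), where the brightest was at -0.12 (adjusted p = 0.688).

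Between treatments the probe sets of Nlrc5 shared a direction in AIRmin. All 19 were higher in AIRmin pristane than in AIRmin control footpads, with a median of 0.31 (0.09 to 0.45). None passed (smallest adjusted p = 0.197), and 7 had an unadjusted p under 0.05, where 5.12% of all genes were higher at that p. In AIRmax 15 of 19 were higher, with a median of 0.08. The mean of the 18 dimmer probe sets was 6.19 ± 0.14 in AIRmax pristane, 6.11 ± 0.29 in AIRmax control, 6.25 ± 0.20 in AIRmin pristane and 5.96 ± 0.20 in AIRmin control footpads (SD, n = 4 each). Probe sets of 1 gene read the same RNA and are not replicates.

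**Figure D5:**
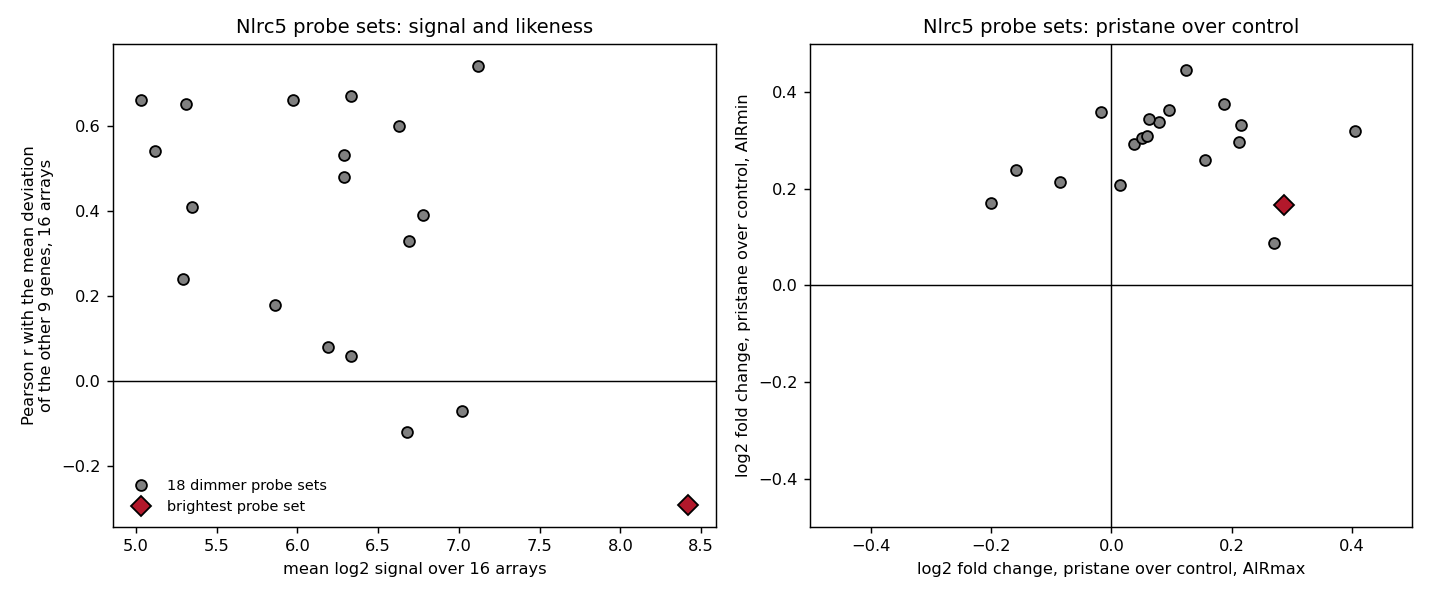
The 19 probe sets of Nlrc5, with the mean log2 signal over 16 arrays against Pearson r with the other 9 genes on the left, and the pristane over control log2 fold change in AIRmax against that in AIRmin on the right. The brightest probe set (red diamond, 8.42) has the lowest r (-0.29), and on the right all 19 lie above 0 for AIRmin.

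The standard catalytic subunits that the immunosubunits replace had smaller line differences, though no test between the genes was made. Over both treatments AIRmax minus AIRmin was 0.05 for Psmb5, -0.01 for Psmb6 and -0.16 for Psmb7, against 0.67 for Psmb8, 0.50 for Psmb9 and 0.50 for Psmb10. None of these 3 was called in the 4 pairwise comparisons or the interaction. Of the 15 core proteasome subunits, 0 were called in those comparisons. Their median line difference over both treatments was 0.02. There 1 was called higher, Psma7 (0.35, adjusted p = 0.0266), against 4.64% of all genes. Their mean deviation correlated at 0.06 with that of the members. Psmb4 was below without overlap in AIRmax against AIRmin controls (-0.43, adjusted p = 0.168), as were 4.94% of all genes.

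The rest of the pathway was measured for 20 of 22 listed genes, and 0 were called in the same comparisons. Their median line difference over both treatments was 0.12, with 4 called higher (4.64% of all genes) and 1 lower (4.82% of all genes). Ubd, a ubiquitin-like protein that marks substrates for the proteasome, was higher in every AIRmax control than in any AIRmin control (0.55, SE 0.10, adjusted p = 0.0955). Of all genes, 5.39% were above without overlap there. The group means of Ubd, 3.38 to 4.04, were near the level of absent transcripts, so its difference is uncertain. Npepps, a cytosolic aminopeptidase, was above without overlap in AIRmin pristane against AIRmin control footpads (0.35, SE 0.09, adjusted p = 0.136), as were 3.19% of all genes. The proteasome activator subunits Psme1 and Psme2 differed between the lines over both treatments by 0.02 (adjusted p = 0.92) and 0.12 (adjusted p = 0.205).

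Of the class I heavy chains and class I-like genes, 13 of 23 were measured singly. H2-K1 and H2-D1 were named only together with other genes and entered no comparison. In the pairwise comparisons and the interaction 0 were called. In control footpads H2-T24 was above without overlap in AIRmax (1.08, SE 0.23, adjusted p = 0.136), and H2-M9 was below without overlap (-0.70, SE 0.13, adjusted p = 0.0956). Of all genes, 5.39% were above and 4.94% below without overlap there. Over both treatments the median line difference of the list was 0.20, with 9 of 13 positive. There 1 gene was called higher in AIRmax (4.64% of all genes) and 1 lower (4.82% of all genes). The lower gene was H2-M9 (-0.55, adjusted p = 0.0168). Group means of H2-M9 were 4.64 to 5.36, not far above the 4.32 reached by Xist in males, so its differences are uncertain. The list's mean deviation correlated with that of the members at 0.80, and at 0.96 within groups.

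Regulators of the pathway were measured for 20 of 22 listed genes, with 0 called in the pairwise comparisons and the interaction. Their median line difference was 0.19 over both treatments, with 19 of 20 positive, 8 higher at an unadjusted p under 0.05 (13.9% of all genes) and 1 called higher (4.64% of all genes). Irf1, an interferon-induced transcription factor of class I genes, was above without overlap in AIRmax against AIRmin controls (0.69, SE 0.20, adjusted p = 0.205), as were 5.39% of all genes. Ifng itself differed by 0.00 between the lines over both treatments (95% interval -0.20 to 0.20). Between pristane and control footpads it differed by 0.23 in AIRmax (adjusted p = 0.477) and 0.17 in AIRmin (adjusted p = 0.631). Its group means of 3.86 to 4.09 lay within the 3.45 to 4.32 of Xist in males, the level of absent transcripts. These values therefore cannot show whether Ifng differed. Ciita, the class II transactivator and a relative of Nlrc5, was below without overlap in AIRmax pristane against AIRmax control footpads (-0.51, SE 0.12, adjusted p = 0.116). That held for 4.3% of all genes.

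The genes outside the set whose pattern over 16 arrays was most like the members' mean deviation were Myo1g (r = 0.949), Parp8 (0.949), Dtx3l (0.949), Pik3cd (0.941) and Gsdmd (0.937). Of 19928 other genes, 909 (4.56%) had an r of at least 0.8, and the median r was -0.07. Myo1g is a myosin of blood cells, Pik3cd the leukocyte phosphoinositide 3-kinase subunit and Gsdmd the pore-forming gasdermin D. No test of their line difference is given, since they were picked for following the members over the same arrays.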

How the data were processed

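The values used were the log2 signals as deposited, already normalized. The algorithm is not settled, since titles point to gene-level RMA with default settings while the submitters' processing notes list MAS5. Of 35556 probe sets, 21789 named 1 gene, 1621 several and 12146 none in the platform annotation, and 21698 matched a RefSeq gene by Entrez number. The brightest probe set stood for each of 19938 genes (999 had more than 1). No further normalization was applied, and no detection or depth measure accompanies the signals; 4 arrays a group limit the precision.

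Groups came from the labels. The labels give separate samples, and p-values measure the spread between these arrays. Pairs of groups were compared with limma 3.58.1 (lmFit, eBayes) in R 4.3.3 on their 8 arrays, and the responses of the lines by an interaction on 16 arrays, with Benjamini-Hochberg adjustment over all genes. Scripts were tested on simulated data. Tables were made with Python 3.11.15 and pandas 2.3.3. Marker scores are mean deviations of the listed genes from their 16-array means. Alternatives covered probe set choice, dim genes, scaling, sex, the prior, left-out arrays, all arrays in 1 fit and SAM.

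All 10 members were named, plus, of each related list, genes called in a comparison or the 2 of smallest p, fixed pathway genes, and the 5 most alike genes. The members and lists were chosen with earlier results of these data known. Promoter sequences are RefSeq's on GRCm38.p6.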

Additional observations from a re-analysis of the deposited data

Results flagged for a closer look

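In each group of 4 arrays, each of the 10 genes was examined for an array far from the others, 40 groups in all, using Dixon's ratio of gap to range. Chance gives such an array in about 1 of 20 groups, and 2 were found here. Tapbp (tapasin) was 8.80 in the AIRmin control male of array 113, where the other 3 AIRmin controls read 9.25 to 9.31 (gap ratio 0.878). The same footpad had the lowest mean deviation of the 10 genes (-0.46). Nlrc5 was 7.91 in the AIRmin control female of array 115, where the others read 8.49 to 8.56 (gap ratio 0.892). No member passed the interaction test between the lines' responses to pristane.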

How the results depend on the processing

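No member was called between pristane and control footpads of either line, or in the difference of their responses, under any alternative run, array left out or covariate. Between the lines, fitting all 16 arrays together gave 1 member called in pristane footpads (Psmb10), and SAM gave 2 in control footpads (Psmb10 and Erap1); leaving out 1 array gave 0 to 0 in each of the 5 comparisons. The comparison over both treatments, added after seeing the data, called 2 members. It called 4 among genes above the median signal, 4 after quantile normalization, 4 with sex as a covariate and 0 with the leukocyte covariate; leaving out 1 array gave 1 to 5. No called value turned its direction. Signs of uncalled values changed in 26 of 170 values between treatments in AIRmax, 13 of 170 in AIRmin and 38 of 240 for the difference of the responses. With the leukocyte covariate some uncalled differences between the lines turned negative, among them those of Psmb8 and Psmb9 in each treatment. The difference of B2m over both treatments (-0.21) did so too. The cause was not tested. No paired analysis was possible because the labels carry no replicate numbers shared between groups. With 4 arrays a group, the intervals of Psmb8 and Psmb9 span over 1 log2 unit, so modest changes may have gone undetected.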

Other observations

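Over 12 measured macrophage markers the median log2 fold change was 0.47 between AIRmax pristane and AIRmax control footpads, with 2 called higher (0.14% of all genes). It was -0.51 between AIRmin pristane and AIRmin control footpads, with 0 called (0% of all genes). The test of the difference between these responses called 2 of 12, against 0.171% of all genes. In the same comparisons the class I processing genes had medians of 0.02 in AIRmax and 0.04 in AIRmin. T cell markers (8 of 9 measured) had medians of -0.52 in AIRmax, with 1 called lower (0.14% of all genes), and -0.16 in AIRmin. B cell markers (5 of 6 measured) had medians of -1.72 in AIRmax, with 1 called lower (0.14% of all genes), and -1.29 in AIRmin. Neutrophil markers (9 of 9 measured) had medians of 0.12 in AIRmax and 0.70 in AIRmin, with 0 called in either.

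A further 7 probe sets were annotated to more than 1 class I heavy chain gene and were in no comparison. Their group means differed between pristane and control footpads by -0.35 to 0.37 in AIRmax and by -0.15 to 0.69 in AIRmin. Between AIRmax and AIRmin they differed by -0.08 to 1.31 in pristane footpads and by -0.21 to 1.64 in control footpads. Their correlation with the mean deviation of the 10 genes was -0.30 to 0.91, with a median of 0.62.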
